A study of Rattus norvegicus with 6 samples.

Results

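The pericyte marker genes Rgs5, Pdgfrb, Cspg4, Mcam, Des, Abcc9 and Kcnj8 were examined in mammospheres, floating spheres that single mammary cells form when kept off the culture surface. The members were these 7 genes, chosen by name and not by their values, of the 14217 genes that a probe set of the array named alone. They were measured by 12 of the 31099 probe sets: 3 each for Pdgfrb and Abcc9, 2 for Mcam and 1 each for the other 4 genes. Each gene was represented by its brightest probe set, by the mean over all arrays, and the others are shown beside it.

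The spheres came from female Sprague Dawley rats. The hCG group had received recombinant human chorionic gonadotropin (hCG), a pregnancy hormone, by intraperitoneal injection at 100 IU per day for 21 days from 55 days of age. The Control group had received buffer for the same time. Mammary glands 4 and 5 of both groups were removed once 21 days without dosing had passed. Their cells, enriched for epithelium, formed spheres over 7 days from 25000 cells per ml, with EGF, basic FGF and heparin in the medium. Each group had 3 arrays, which carry the numbers 5, 6 and 7. No label ties an array to an animal of its own, so p-values reflect the spread among these samples, part of which may be technical.

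Pericytes are the mural cells of the smallest vessels. They sit in the basement membrane against the endothelium, and are drawn there by platelet-derived growth factor B from endothelial cells, which acts on the receptor encoded by Pdgfrb. They steady the capillary wall and regulate its calibre. No marker belongs to pericytes alone, since smooth muscle, fibroblasts, myoepithelium or endothelium express some of the same genes.

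The 7 genes differed in how far their values moved, from a log2 change of -0.31 to one of 1.39. Rgs5 rose in hCG spheres, and was the only member whose representing probe set passed the test over all genes. Mcam and Abcc9 had larger differences, with all 3 hCG arrays above all 3 Control arrays, but did not pass. The values of Pdgfrb, Cspg4, Des and Kcnj8 overlapped between the groups. Log2 values were tested with limma, at a Benjamini-Hochberg adjusted p under 0.05. It called 105 of 10424 genes higher in hCG spheres (1.01%), 85 lower (0.815%) and 190 in either direction (1.82%), against 1 of the 5 members that passed the filter on dim signal. The filter left out the dimmest 40% of probe sets, those with a mean under a log2 value of 2.67.

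Cspg4 and Kcnj8 lay below that filter. Rgs5 and Abcc9 passed it only through their hCG arrays, as their Control means of 2.47 and 2.59 lay under the filter level, so the 5 tested members are not a neutral sample of the 7. Without the filter, Rgs5 was again the only called member of 7 (1.88% of 14217 genes were called in either direction). In that fit all hCG values lay above all Control values in 3 of the 7 members, as in 15.6% of genes. Of the 7 members 6 had a change above 0, as did 53.5% of genes, and their median log2 change was 0.18, beside 0.015 over all genes without the filter. Their mean level, set to 0 at the average of the controls, was -0.049, -0.062 and 0.11 on Control 5, 6 and 7, against 0.33, 0.49 and 0.57 for hCG 5, 6 and 7. These means did not overlap, and Mcam and Abcc9 had the largest changes in them.

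The arrays differed in ways that touch these results. Control 7 stood apart from the other 5 arrays on the second principal component, at -33.3 against 2.07 to 14.2, and hCG 6 lay closest to the Control arrays on the first. Control 7 also had the highest signal at the 3 prime end of control transcripts relative to the 5 prime end. This log2 difference was 0.67 for Gapdh (0.048 to 0.22 on the other 5 arrays) and 2.18 for Actb (1.46 to 1.75). Bacterial poly-A transcripts, added to the RNA before labelling, had mean log2 levels of 5.43 to 5.71 on Control arrays and of 4.31 to 4.90 on hCG arrays. The part of these array differences in the changes described here was not tested. In bulk RNA of whole spheres, more cells of a type and more RNA per cell cannot be told apart.

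**Figure D1:**
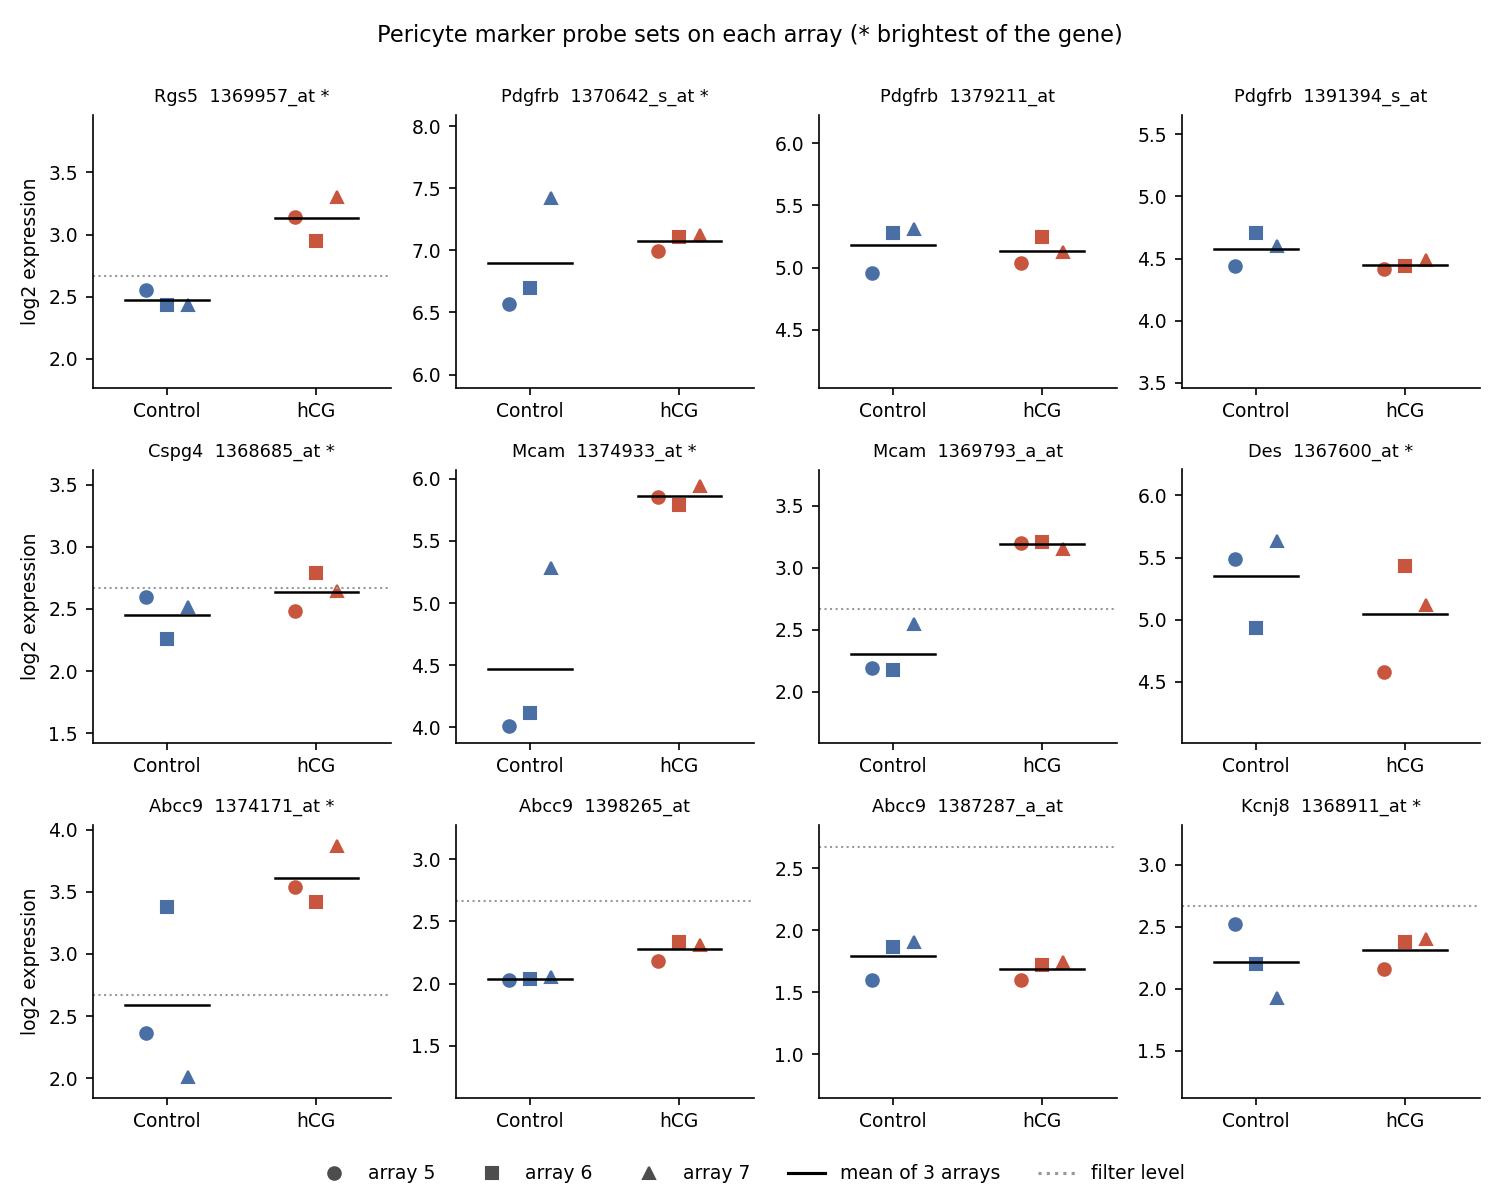
Log2 expression of the 12 probe sets of the 7 pericyte marker genes on each of the 6 arrays, in panels that span the same range of 2.2 log2 units; symbols give the array number, bars the mean of 3 arrays and the dotted line the filter level of 2.67. The hCG arrays lie above all Control arrays for Rgs5, both Mcam probe sets and 2 of the 3 Abcc9 probe sets, 5 of the 12 in all (12.2% of all probe sets did so).

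Rgs5 encodes a regulator of G protein signalling that shortens signals from receptors such as those for vasoconstrictors, and is among the most used markers of pericytes. On probe set 1369957_at its log2 value was 2.55, 2.43 and 2.43 on Control 5, 6 and 7. It was 3.14, 2.95 and 3.30 on hCG 5, 6 and 7. Every hCG array lay above every Control array, the gap running from 2.55 to 2.95. The log2 change was 0.66 (SE 0.11, 95% interval 0.40 to 0.92), a 1.58-fold rise with a limma adjusted p of 0.0439 (n = 3 arrays per group). The signal was dim: 41.9% of probe sets had a lower mean over the 6 arrays.

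Rgs5 differed in the same direction with any array left out, with log2 changes from 0.57 to 0.75. Its call held without Control 7 (adjusted p = 0.0476) and without hCG 6 (0.0306). Its call was lost without Control 5, Control 6, hCG 5 or hCG 7, where limma called 0 genes of any kind. In these fits 1950, 1931, 1649 and 1455 genes had an unadjusted p under 0.05. With each of these left out, the unadjusted p of Rgs5 lay between 0.00156 and 0.00313.

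The bases before the RefSeq start of Rgs5 are shown because Rgs5 was the member that passed. They lie on the plus strand at chr13:84380827-84381076 of the rat assembly GRCr8, from RefSeq, and capitals mark GGGCGG on either strand, a GC box that Sp-family factors can bind.
Rgs5: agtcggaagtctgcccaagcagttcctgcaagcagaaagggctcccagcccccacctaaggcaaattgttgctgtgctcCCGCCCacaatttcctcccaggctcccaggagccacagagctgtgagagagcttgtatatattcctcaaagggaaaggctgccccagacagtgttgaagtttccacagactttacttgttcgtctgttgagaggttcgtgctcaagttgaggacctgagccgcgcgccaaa
Windows of 250 bases before the start were matched for 5 of the 7 members, and not for Pdgfrb or Mcam. All 5 held GGGCGG on either strand, as did 30.5% of 33469 windows of the same length. The 5 windows had a GC content of 54.4% to 71.2%, against a median of 51.2% over all windows. CANNTG, the E-box, was present in the windows of Des and Abcc9 (65.5% of all windows), and CCAAT in that of Cspg4 (34%). None of the 5 held the TATA box TATAAA (12.9% of all windows), the palindromic E-box CACGTG (5.59%), the TEAD site GGAATG (12.1%) or the CArG box of serum response factor (1.5%).

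The other RGS genes of the same subfamily (R4) gave changes of both signs. Of 7 with a probe set, 5 passed the filter, 0 were called by limma, and 3 had an unadjusted p under 0.05. Over all tested genes 24.1% had such a p, the background for this count and those of the other lists. Rgs1, a gene of lymphocytes and other leukocytes, stood at -1.04 (SE 0.24, adjusted p = 0.0751), and Rgs3 at -0.58 (SE 0.15, adjusted p = 0.0865). Both had all hCG arrays below all Control arrays, while Rgs16, at 0.81 (SE 0.28, adjusted p = 0.147), had them above. Rgs4 is also found in mural cells. Its Control values were 3.25, 3.19 and 4.22, and its hCG values 4.55, 3.29 and 3.36. The Rgs4 groups overlapped, with Control 7 and hCG 5 the highest of their groups.

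Mcam encodes the adhesion protein CD146, which binds laminin in the vessel wall and is made by endothelial cells as well as pericytes. Its brightest probe set, 1374933_at, read 4.01, 4.12 and 5.28 on Control 5, 6 and 7 and 5.85, 5.79 and 5.94 on hCG 5, 6 and 7. The hCG arrays were alike, and all lay above the Control arrays, of which Control 7 was the highest. The log2 change was 1.39 (SE 0.32, 95% interval 0.64 to 2.15), or 2.63-fold, with a limma adjusted p of 0.0714. The other probe set, 1369793_a_at, read 2.19, 2.17 and 2.55 in the controls, against 3.20, 3.21 and 3.15 after hCG. This dimmer probe set passed in the fit over all probe sets, at a change of 0.88 (SE 0.12, 1.84-fold, adjusted p = 0.0393), where 0.811% of 18625 probe sets were called higher. It too passed the filter only through its hCG arrays, as its Control mean was 2.31, and without the filter its adjusted p was 0.0384. Both probe sets put Control 7 highest among the controls.

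Mcam was therefore called on the dimmer of its probe sets and not on the brighter. The mean of both passed, at 1.14 (adjusted p = 0.0477). Without Control 7 the brighter probe set had a change of 1.80 and passed (adjusted p = 0.00222), and the dimmer had one of 1.00 (adjusted p = 0.00662). Without hCG 6 the brighter stood at 1.43 (adjusted p = 0.105) and the dimmer at 0.87, which passed (adjusted p = 0.0492). The call of the dimmer probe set was lost without Control 5, Control 6, hCG 5 or hCG 7 (adjusted p from 0.0942 to 0.192, changes from 0.82 to 0.90), and with the array number as a block (0.0656). Lama4, the laminin chain that Mcam protein binds, had a change of 0.74 (SE 0.28, adjusted p = 0.177), with overlapping groups.

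Abcc9 and Kcnj8 encode the parts of the ATP-sensitive potassium channel of mural cells, the sulfonylurea receptor SUR2 and the pore Kir6.1. In GRCr8 they are neighbours on chromosome 4, with 0 annotated genes starting between them. The brightest Abcc9 probe set, 1374171_at, read 2.36, 3.38 and 2.01 on Control 5, 6 and 7 and 3.54, 3.42 and 3.87 on hCG 5, 6 and 7. All hCG values lay above the Control values, but Control 6 lay close below hCG 6. The log2 change was 1.03 (SE 0.34, 95% interval 0.23 to 1.82), with a limma adjusted p of 0.136. Leaving out Control 7 gave 0.74 and leaving out Control 6 gave 1.42, the lowest and highest of these fits, and it passed in none of the 6 (adjusted p from 0.102 to 0.376).

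The other Abcc9 probe sets were below the filter level and differed from the first. On 1398265_at, the controls read 2.03, 2.03 and 2.05 and the hCG arrays 2.18, 2.34 and 2.31. The groups did not overlap there either, at a change of 0.24 (SE 0.08, adjusted p = 0.179 without the filter). On 1387287_a_at the groups overlapped, at a change of -0.11 (SE 0.10). The probe sets of Abcc9 thus gave changes of both signs.

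Kcnj8, on 1368911_at, read 2.52, 2.20 and 1.93 in the controls, against 2.16, 2.38 and 2.40 after hCG. The groups overlapped fully at this dim level, where the lowest and the highest value were both those of Control arrays. The change was 0.10 (SE 0.15, 95% interval -0.26 to 0.46, adjusted p = 0.771 without the filter). Its sign turned without Control 7 (-0.044). Kcnj11 and Abcc8, which form the channel of pancreatic beta cells and neurons, were below the filter too, with changes of 0.0039 (SE 0.09) and 0.077 (SE 0.07). The difference between Abcc9 and Kcnj8 was not tested.

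The windows before the starts of Abcc9 and Kcnj8 are shown since the brightest Abcc9 probe set (1.03) and that of Kcnj8 (0.10) gave unlike values. The dimmer Abcc9 probe sets stood at 0.24 and -0.11, and no difference from Kcnj8 was tested. Both windows are on the minus strand, at chr4:177386349-177386598 and chr4:177246549-177246798 of GRCr8, written along the gene. Capitals mark GGGCGG on either strand and, in Abcc9, CANNTG.
Abcc9: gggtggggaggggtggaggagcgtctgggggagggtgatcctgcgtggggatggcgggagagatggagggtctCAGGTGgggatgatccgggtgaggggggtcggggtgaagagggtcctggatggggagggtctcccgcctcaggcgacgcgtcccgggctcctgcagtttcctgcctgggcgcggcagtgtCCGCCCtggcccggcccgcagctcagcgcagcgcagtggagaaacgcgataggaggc
Kcnj8: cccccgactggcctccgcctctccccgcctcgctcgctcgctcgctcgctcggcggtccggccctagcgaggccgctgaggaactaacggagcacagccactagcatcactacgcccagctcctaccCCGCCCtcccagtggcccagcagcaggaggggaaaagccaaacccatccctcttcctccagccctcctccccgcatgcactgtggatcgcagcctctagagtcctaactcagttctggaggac
GGGCGG lay with its first base 57 bases before the Abcc9 start and 123 before the Kcnj8 start, and 171 before that of Rgs5. Of the motifs searched, only CANNTG, held by 65.5% of all windows, was present in the window of Abcc9 and absent from that of Kcnj8. The part of any motif in the values was not tested.

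Pdgfrb encodes the receptor through which platelet-derived growth factor B holds pericytes on the vessel, and is also made by fibroblasts. Its brightest probe set, 1370642_s_at, carries a suffix that marks probes able to match more than 1 transcript. It read 6.57, 6.70 and 7.42 on Control 5, 6 and 7 and 6.99, 7.11 and 7.12 on hCG 5, 6 and 7. The hCG arrays lay above Control 5 and 6 and below Control 7. The change was 0.18 (SE 0.22, 95% interval -0.33 to 0.69), with a limma adjusted p of 0.654. Control 7 set this value: without it the change was 0.44 and passed (adjusted p = 0.0464), and without Control 5 it was 0.015.

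The other Pdgfrb probe sets gave changes of -0.043 (SE 0.12, 1379211_at) and -0.13 (SE 0.09, 1391394_s_at). Their groups overlapped, and their hCG values lay between 5.04 and 5.25 and between 4.42 and 4.49. Without Control 7 these changes were 0.022 and -0.12, so the rise seen then in the brightest probe set was not shared by the dimmer ones. Both dimmer probe sets are annotated to the same sequence, so they are not independent readings. The probe set 1391394_s_at carries the same suffix as the brightest. Averaged over the 3 probe sets the change was 0.0017 (SE 0.12, adjusted p = 0.994).

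The ligands and the other receptor of the pathway did not pass either, with 0 of 3 tested genes called by limma and 1 at an unadjusted p under 0.05. That gene was Pdgfra, the receptor typical of fibroblasts, which read 10.90, 10.91 and 10.79 in the controls, against 11.10, 11.10 and 11.16 after hCG. Its groups did not overlap, at a change of 0.25 (SE 0.08, adjusted p = 0.120). The ligand genes Pdgfa and Pdgfc had changes of -0.24 (SE 0.20) and -0.030 (SE 0.09), and Pdgfd, below the filter, one of 0.13 (SE 0.09). No probe set named Pdgfb alone.

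Cspg4 encodes the proteoglycan NG2, found on pericytes, on glial precursors and on some basal epithelium. On 1368685_at it read 2.59, 2.26 and 2.51 in the controls, against 2.49, 2.79 and 2.64 after hCG. The groups overlapped, with a change of 0.18 (SE 0.12, 95% interval -0.10 to 0.47, adjusted p = 0.439 without the filter). With 1 array left out it lay between 0.086 and 0.26. Of 5 genes of glial lineages 2 were tested, Sox10 and Mbp, with changes of -0.17 (SE 0.17) and -0.10 (SE 0.11). The part of other cells in the Cspg4 values was not tested.

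Des encodes desmin, the intermediate filament of muscle cells and of many pericytes. It was the only member with a change below 0. It read 5.49, 4.93 and 5.64 on Control 5, 6 and 7 and 4.58, 5.43 and 5.12 on hCG 5, 6 and 7, so the groups overlapped. The change was -0.31 (SE 0.26, 95% interval -0.92 to 0.30, limma adjusted p = 0.505), and lay between -0.52 and -0.079 with 1 array left out. hCG 5 was the lowest array for Des. It was also lowest for the mean level of the tested skeletal muscle markers. That level, again set to 0 at the average of the controls, was 0.25, -0.19 and -0.061 on Control 5, 6 and 7. It was -0.44, 0.36 and 0.65 on hCG 5, 6 and 7. Among the tested markers Acta1, Tnnt3 and Tnnc2 were lowest on hCG 5, but Myh1 was lowest on hCG 7 and Myog on Control 6. Of these 10 muscle genes 5 were tested and 0 called, with 1 at an unadjusted p under 0.05, the myosin gene Myh1 (-0.27, SE 0.09). The myogenic factor gene Myog stood at 0.13 (SE 0.12), and Ckm, Mb, Myh2, Myod1 and Ttn were below the filter. The part of muscle cells in the Des values was not tested.

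**Figure D2:**
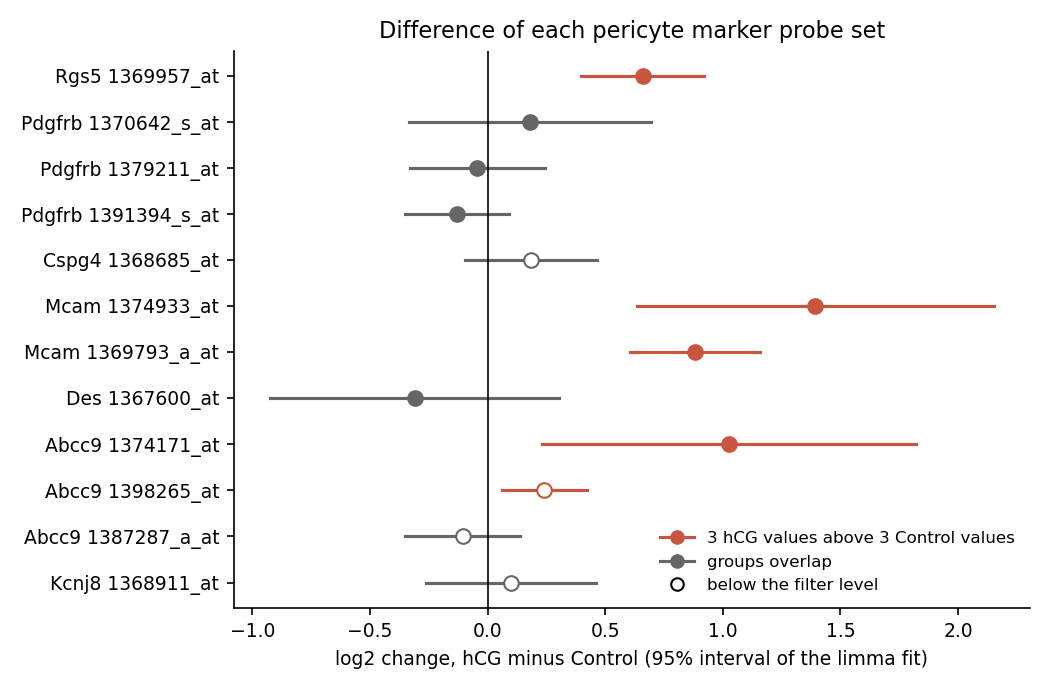
Log2 change (hCG minus Control) of each of the 12 probe sets with its 95% interval from the limma fit; filled points passed the filter, open points are from the fit without it, and orange marks probe sets whose hCG values all lay above the Control values. Intervals of Rgs5, both Mcam probe sets and 2 Abcc9 probe sets lie above 0, before any adjustment for the number of probe sets.

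**Figure D3:**
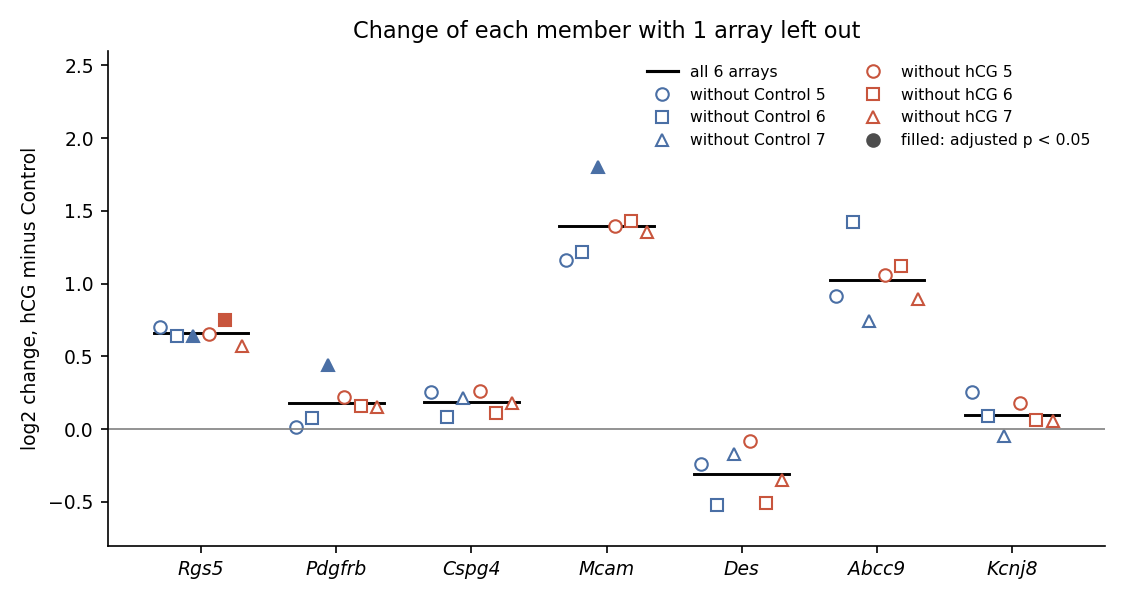
Log2 change of the brightest probe set of each member with all 6 arrays (bar) and with each array left out (symbols); filled symbols have an adjusted p under 0.05. Rgs5 stays between 0.57 and 0.75, while Pdgfrb runs from 0.015 to 0.44 and Abcc9 from 0.74 to 1.42.

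Other genes of mural cells, from a list of 19, had 12 tested members, of which 9 lay above 0 (55.8% of all tested genes did) and limma called 0, with 4 at an unadjusted p under 0.05. Their median log2 change was 0.19, beside 0.030 over all tested genes. Gja4, the connexin gene of mural and arterial endothelial cells, read 3.47, 3.76 and 5.15 in the controls, against 6.23, 5.71 and 5.91 after hCG. All hCG arrays lay above the controls and Control 7 was again the highest control, at a change of 1.82 (SE 0.42, adjusted p = 0.0714). Tbx18, a transcription factor of mural cells, stood at 0.39 (SE 0.11, adjusted p = 0.111), and the Notch target gene Heyl at 0.26 (SE 0.09). Kcne4, a potassium channel subunit gene, went the other way, at -0.66 (SE 0.19, adjusted p = 0.111), with all hCG arrays below all Control arrays. Notch3, the Notch receptor of mural cells, stood at -0.17 (SE 0.09) and Cd248, endosialin, at 0.33 (SE 0.24), both with overlapping groups.

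Among 12 tested genes that signal between endothelium and mural cells, 1 rose. It was Angpt2, the endothelial ligand that loosens pericytes from the vessel, which read 2.85, 2.55 and 2.97 in the controls, against 4.30, 3.97 and 3.93 after hCG. Its change was 1.28 (SE 0.15, limma adjusted p = 0.0294). Angpt1, the opposing ligand made by mural cells, had one of 0.33 (SE 0.10, adjusted p = 0.116), with no overlap between the groups. The median of this list was 0.23, 8 of its 12 tested genes lay above 0 (55.8% of all tested genes did) and 5 had an unadjusted p under 0.05. Notch1 stood at 0.71 (SE 0.13), with a limma adjusted p just above 0.05 (0.05004). Without the filter limma called 2 genes of the list. Tgfb1 went the other way, at -0.78 (SE 0.32, adjusted p = 0.195), with all hCG arrays below all Control arrays.

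Endothelial markers had a larger median change than the pericyte members, a difference that was not tested. Of 10 tested endothelial markers, all lay above 0 (55.8% of all tested genes did) and 9 had an unadjusted p under 0.05. The limma fit called 4 higher, Sox17, Emcn, Esam and Erg, with changes from 0.62 to 2.15. Sox17, with the largest of these changes, passed the filter only through its hCG arrays, as its Control mean was 2.23. The tested endothelial markers are therefore not a neutral sample of their list. The list median was 1.11, or 0.83 with the markers below the filter, beside 0.66 for the 5 tested members and 0.18 for all 7. On the same scale, the level of the tested markers was -0.33, -0.14 and 0.47 on Control 5, 6 and 7. It was 1.12, 1.16 and 1.07 on hCG 5, 6 and 7. Flt1, also tested, hardly moved (0.059, SE 0.15), with overlapping groups. Tie1 and Vwf were below the filter, with changes of 0.67 and -0.10, and no probe set named Cdh5 alone. The part of endothelial cells in the values of Mcam was not tested.

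Contractile genes that mural cells share with myoepithelium had 0 of 8 tested genes called by limma, with 3 at an unadjusted p under 0.05, and all 8 above 0 (median 0.48). Their levels overlapped between groups, from -0.32 to 0.42 on Control arrays and from 0.25 to 0.60 on hCG arrays. Myh11, smooth muscle myosin, stood at 0.58 (SE 0.16, adjusted p = 0.0978), and the tropomyosin gene Tpm2 at 0.67 (SE 0.25). Of 4 tested basal epithelial markers limma called 0, with 1 at an unadjusted p under 0.05 and all 4 above 0 (median 0.80). The levels of these markers overlapped between groups as well (-0.86 to 0.62 and 0.39 to 1.01). The integrin gene Itga6 stood at 0.88 (SE 0.28) and the keratin gene Krt14 at 0.92 (SE 0.45). Of 9 tested fibroblast markers 1 rose and 1 fell, the matrix genes Lum (1.13, SE 0.17, adjusted p = 0.0373) and Dpt (-0.99, SE 0.15, adjusted p = 0.0375). Of these 9 markers 7 lay above 0 and 6 had an unadjusted p under 0.05. Over all tested genes 55.8% lay above 0, and limma called 1.01% higher and 0.815% lower. Filament and matrix genes linked to desmin and NG2 had 0 of 9 called, with 3 at an unadjusted p under 0.05. Among them the mesenchymal filament gene Vim stood at 0.37 (SE 0.09, adjusted p = 0.0828) and the collagen gene Col6a3 at 0.50 (SE 0.11, adjusted p = 0.0625).

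**Figure D4:**
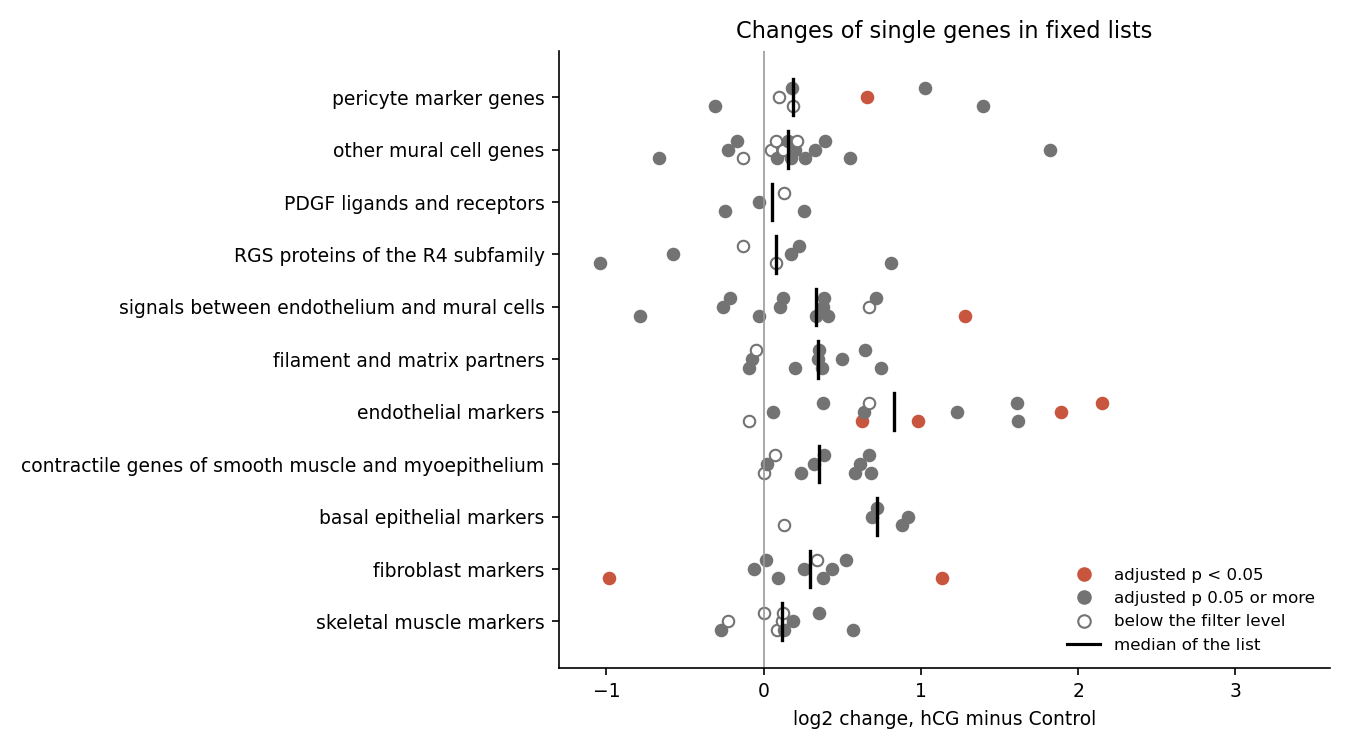
Log2 change (hCG minus Control) of every gene with a probe set in 11 lists, with the list median as a bar; orange points have an adjusted p under 0.05 and open points are below the filter level. In the pericyte markers 1 of 7 genes is orange, and the endothelial markers reach 2.15.

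The genes whose values ran most like those of each member were ranked by Pearson correlation over the 6 arrays, among 10424 genes. For Rgs5 these were Fmc1 (r = 0.996), Rbl1 (0.994) and Ipo7 (0.991), and 145 genes had an r above 0.95. For Mcam they were Psmg3, Cxcr4 and Ptp4a3 (0.998 each), with 271 genes above 0.95. The nearest to Pdgfrb were Rtel1 (0.996), Src (0.993) and Cd99 (0.991), those nearest to Abcc9 were Smad2 (0.991), Ssb (0.985) and Xpo1 (0.982), and those nearest to Des were Trpt1 (0.987), Wtip (0.980) and Zhx2 (0.975). No member was among the 3 nearest genes of another. These are the highest of the correlations with 10424 genes, over 6 arrays each, so they are descriptions with no test. Mcam and Abcc9, both with all hCG arrays above all Control arrays, had an r of 0.47 with each other, and a Spearman rank correlation of 0.83. Rgs5 had an r of 0.80 with Mcam and of 0.76 with Abcc9. The nearest genes did not all differ between the groups, as Rtel1 had a limma adjusted p of 0.590.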

How the data were processed

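The values were the authors' deposited log2 expression values, 1 row per probe set and 1 column per Affymetrix 3' array. Per the labels' protocols, RNA was amplified in 2 cycles. RMA, MAS5 and limma appear in the submitters' processing notes, without roles or versions. The log base and normalization are not given in the sources used here. The values ran from 0.74 to 13.1 with nearly equal medians on all arrays, and were taken as log2, normalized between arrays. Such scaling hides any shift common to most genes.

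Groups came from the sample titles. The 57 control probe sets and the dimmest 40% of the others were left out, which left 18625 probe sets and 10424 genes by brightest probe set. Probe sets naming several genes were not used. Symbols were updated through Entrez numbers with RefSeq (GRCr8). The groups were compared in R 4.3.3 with limma 3.58.1 (lmFit, eBayes), two-sided, with 4 residual degrees of freedom from 6 arrays, whose number limits the precision. P-values were adjusted by Benjamini-Hochberg over all genes or all probe sets. The fit was tested on simulated data. Below the filter, values come from the same fit without it.

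Named genes were the members, the called genes of each list or else those of smallest p, the PDGF and channel genes, and the 3 genes most like each member. Other genes were named after their values were seen: Rgs4, Rgs16, Lama4, Notch3, Heyl, Kcne4, Cd248, Angpt1, Notch1, Tgfb1, Flt1, Acta1, Tnnt3, Tnnc2, and the dim or missing markers listed. The members and lists were chosen with earlier results of these data known. Alternatives were other filters, scalings, variance models, array weights, the array number as a block, averaging the probe sets of a gene, a threshold of 0.10 and each array left out. A pseudocount and protein comparisons did not apply.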

Additional observations from a re-analysis of the deposited data

How the results depend on the processing

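The log2 changes of Rgs5, Mcam, Cspg4, Des and Abcc9 kept their sign under every alternative in which they were tested, and that of Pdgfrb on its brightest probe set did too. The cause of each change of call below was not tested. Over all genes limma called 190, and 118 with the replicate block, 2663 with array weights, 306 with a variance trend, 844 at a threshold of 0.10 and between 0 and 584 with 1 array left out. Over probe sets it called 298, and 1, 4253, 500, 1456 and between 0 and 1064 in the same order. Among member genes 1 was called: 0 with the dimmest 60% left out, where Rgs5 was not tested (1 of 3 members at an unadjusted p under 0.05), 0 with the replicate block (3 at an unadjusted p under 0.05), 3 with array weights, 2 with probe sets averaged per gene, 2 at a threshold of 0.10 and between 0 and 3 with 1 array left out. Of member probe sets 2 were called: 0 with the dimmest 60% left out, 0 with the replicate block, 4 with array weights and between 0 and 4 with 1 array left out. Rgs5 had an adjusted p of 0.0707 with the replicate block, at the same change of 0.66. The deviations of same-numbered arrays from their group means had r of -0.09, 0.13 and 0.0015, and those of other pairs ran from -0.19 to 0.18. The numbers were not taken as pairs in the main fit, though with 3 arrays per group this cannot exclude pairing. Mcam passed with array weights (1.73), with the mean of its probe sets (1.14) and at a threshold of 0.10 (1.39), and lay between 1.16 and 1.80 with 1 array left out. Abcc9 passed with array weights (1.03). Pdgfrb lay between 0.015 and 0.44 with 1 array left out, and its probe set 1379211_at, at -0.043, between -0.16 and 0.022. Rgs5 lay between 0.57 and 0.75 and Kcnj8 between -0.044 (without Control 7) and 0.25. Median centring, quantile normalization and cyclic loess changed no member call. Cspg4 and Kcnj8 lay under the filter level, where 37.9% and 32.5% of probe sets were dimmer.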

Other observations

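Markers of cell types that share no member gene were also read. Of 7 tested luminal epithelial markers 6 lay below 0 and 1 fell, Cd24, a surface glycoprotein (log2 change -1.42, SE 0.15, limma adjusted p = 0.0289). Of 3 tested macrophage markers limma called 0, with 2 at an unadjusted p under 0.05 (24.1% of all tested genes): the lysosomal gene Cd68 stood at -1.33 (SE 0.34, adjusted p = 0.0879) and the lysozyme gene Lyz2 at 0.90 (SE 0.29, adjusted p = 0.136). The adipocyte genes Adipoq, Plin1, Lep and Cidec were below the filter, and the tested gene of that list, Fabp4, which capillary endothelium also expresses, rose by 1.91 (SE 0.25, adjusted p = 0.0353).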
